A study of Mus musculus with 2 samples.

Results

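Among 8331 cells prepared from the pigmented back of mouse eyes, 480 were chosen by a rule on keratin 12 (Krt12). Krt12 is the type I keratin that marks the epithelium of the cornea. Of the 480, 429 came from the mice given sodium iodate (NaIO3) and 51 from the controls. The members were chosen in steps from raw counts of unique molecular identifiers (UMIs, each a counted RNA molecule). A barcode needed 500 genes or more and no more than 25% mitochondrial counts, and counts were scaled to 10000 per cell (CP10K). Surface epithelium was defined as barcodes with a summed level of Krt5, Krt14, Krt12, Krt15 and Krt4 of at least 60 CP10K and a summed level of Rpe65, Rlbp1, Rgr, Lrat and Rdh5, genes of the retinal pigment epithelium (RPE), under 100 CP10K. A surface epithelial cell with more Krt12 UMIs than Krt15 and Krt4 UMIs together is called a Krt12 cell here, and the remaining 294 are called other surface epithelium (272 in NaIO3, 22 in PBS).

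Both groups were C57BL/6J mice of the same wild-type background. Treated mice received 20 mg/kg of NaIO3, an oxidant that damages the RPE, intravenously, and control mice an equal volume of phosphate-buffered saline (PBS), each for 7 days; the labels give neither age nor sex. After dispase digestion the front of the eye and the neural retina were taken away, and brown hexagonal cells were picked under a microscope, so a corneal cell was not what the preparation set out to collect. Each library came from a pool of eyes of 6 mice, and there was 1 library a group, so nothing below has a replicate check and the spread between mice cannot be seen.

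The corneal epithelium is a stratified sheet that renews itself from basal cells at the limbus, the ring between cornea and conjunctiva. Basal cells hold Krt5 with Krt14 or Krt15, and cells that move toward the centre and the surface take up Krt12, tight junctions, membrane mucins and secreted proteins of the Ly6 family. When the sheet is injured, cells at the edge flatten and slide over the gap, and stratified epithelia under such stress are known for making Krt6 and Krt16 and the small proline-rich proteins (Sprr) that are cross-linked under the cell membrane into a tough envelope.

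The NaIO3 library held 4058 barcodes with 51168520 UMIs, of which 3944 barcodes were kept, and the PBS library 4618 barcodes with 51055592 UMIs, of which 4387 were kept. A Krt12 cell had a median of 10459 UMIs in NaIO3 (4352 to 59050) and 12965 in PBS (3256 to 36143), with medians of 2576 and 2558 genes. Mitochondrial counts were low, at a median of 2.21% in NaIO3 Krt12 cells and 2.02% in PBS Krt12 cells, against 11.7% in NaIO3 and 8.22% in PBS for barcodes of the RPE gate (RPE gene sum of at least 100 and keratin sum under 60 CP10K). The libraries shared 24 barcodes, 5 of which were Krt12 cells in NaIO3 and 0 in PBS, and no barcode was a Krt12 cell in both. Summed over cells, the Krt12 cells gave 5530868 UMIs in NaIO3 and 674303 in PBS, and levels below (CPM) are counts scaled to an equal total. Their intervals are exact 95% intervals for counting error only. Counts come from the ends of transcripts, so levels are compared between samples for 1 gene, not between genes.

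Krt12 cells made up 10.9% of kept barcodes in NaIO3 (9.92 to 11.9%) and 1.16% in PBS (0.867 to 1.53%). Within surface epithelium their share was 61.2% in NaIO3 (57.5 to 64.8%) and 69.9% in PBS (58.0 to 80.1%), and these intervals overlap. Surface epithelium as a whole made up 17.8% of kept barcodes in NaIO3 and 1.66% in PBS, and the RPE gate held 57.3% in NaIO3 and 82.6% in PBS. The share of a cell type in a dissected and hand-picked preparation depends on what was cut and picked as well as on the eye, and with 1 pool a group these cannot be told apart.

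The values that chose the members left few doubtful cells. The share of Krt12 in the summed Krt12, Krt15 and Krt4 UMIs of a cell had a median of 97.5% in NaIO3 Krt12 cells and 96.5% in PBS Krt12 cells. Between 40 and 60% lay 9 cells inside and 7 outside the rule in NaIO3, and 4 inside and 4 outside in PBS. The nearest member in NaIO3 had 28 Krt12 UMIs against 27 of Krt15 and Krt4, and the nearest cell left out had 90 against 98. In PBS the nearest member had 61 against 59, and the nearest cell left out had 49 against 49. On the keratin sum the lowest surface epithelial cell, Krt12 cell or not, stood at 60.2 CP10K in NaIO3 and 64.3 in PBS, and the highest barcode left out at 58.2 and 59.3. A further 12 barcodes in NaIO3 and 5 in PBS passed the keratin sum but carried too much RPE RNA. Scrublet, which scores barcodes for holding more than 1 cell, marked 10 NaIO3 and 0 PBS Krt12 cells, and they were kept.

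**Figure D1:**
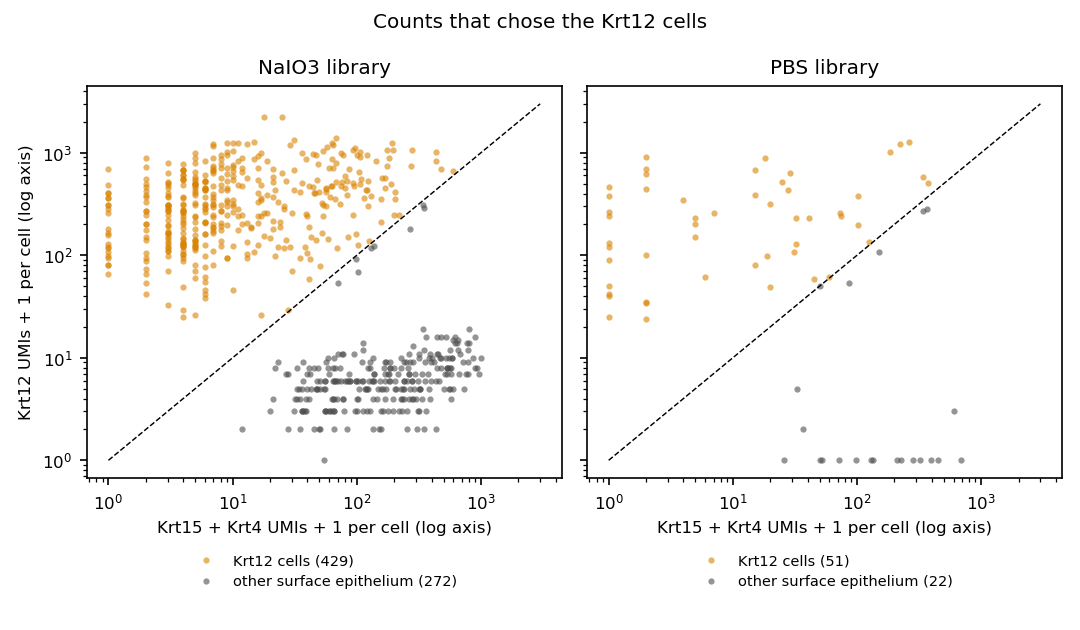
UMIs of Krt12 (vertical, plus 1, log axis) against UMIs of Krt15 and Krt4 together (horizontal, plus 1, log axis) in each surface epithelial cell, with NaIO3 on the left and PBS on the right; the dashed line marks equal counts. The 429 and 51 Krt12 cells above the line lie apart from most of the 272 and 22 cells below it, and 9 and 4 Krt12 cells lie within 40 to 60% Krt12.

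The label of corneal type came with 6 markers, of which Krt12 belongs to the rule and was left out of the sum. The markers were chosen with earlier results of these data known, so their levels describe the cells and are no independent check. The other 5, Krt6b, Krt16, Sprr1a, Slurp1 and Calml3, summed to 35568 CPM in Krt12 cells of NaIO3 and 25222 CPM in those of PBS, against 7003 and 10527 CPM in the other surface epithelium. In the RPE gate they summed to 727 CPM in NaIO3 and 54.4 CPM in PBS, in cells that should lack these genes. Krt12 UMIs were found there too, in 99.6% of NaIO3 and 32.8% of PBS barcodes, at 597 and 37.7 CPM. In NaIO3 each of the 5 was at least 2-fold higher in Krt12 cells than in the other surface epithelium. In PBS Krt6b, at 7283 against 3842 CPM, and Calml3, at 6628 against 3733 CPM, were less than 2-fold higher, and Krt16 and Sprr1a were low in both, so outside the rule the label rests mainly on Slurp1 there. Krt12 itself averaged 31854 CPM in NaIO3 Krt12 cells and 24587 CPM in PBS Krt12 cells, and ran from 34.2 through a median of 291 to 1063 CP10K over the cells of NaIO3 and from 33.1 through 202 to 550 CP10K over those of PBS. Pax6, the eye-field transcription factor that corneal epithelium keeps and epidermis lacks, was present at 346 CPM in NaIO3 and 282 CPM in PBS, against 17.7 and 8.87 CPM in the RPE gate, and the other surface epithelium held more of it, at 535 CPM in NaIO3 and 304 CPM in PBS. Aldh3a1, the aldehyde dehydrogenase that fills corneal cells as a soluble crystallin, stood at 5128 CPM in NaIO3 and 5941 CPM in PBS. A list of 11 epidermal genes summed to 224 CPM in NaIO3 and 162 CPM in PBS Krt12 cells, against 82.5 and 49.5 CPM in the other surface epithelium. The desmoglein Dsg1a gave most of it, at 143 CPM in NaIO3 and 133 CPM in PBS, while Flg, Flg2, Krt2, Hrnr, Lce1a1 and Lce1b had no UMI in Krt12 cells of either library. A list of 16 conjunctival and goblet cell genes summed to 4356 CPM in NaIO3 and 5818 CPM in PBS Krt12 cells, against 14464 and 7087 CPM in the other surface epithelium. Krt13, a keratin of mucosal epithelia, gave 3104 and 3773 CPM of it, while Muc5ac, Muc5b, Foxa3, Gcnt3 and Tff1 had no UMI in Krt12 cells of either library. This sum took the whole list, with no keratin of the rule left out, so it describes the cells. Counted without such keratins, 5 of 8 genes were at least 2-fold lower and 2 higher in NaIO3 Krt12 cells. In PBS 2 of 7 were lower and 2 higher. Over all genes 22.4% were lower in NaIO3 and 19.0% in PBS, and 8.32% and 10.6% higher.

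Markers of other cell types were present in the Krt12 cells at levels that differed between the libraries. A list of 14 macrophage genes summed to 4711 CPM in NaIO3 Krt12 cells and 789 CPM in PBS Krt12 cells, against 96489 and 44555 CPM in the myeloid gate. In NaIO3 420 of 429 Krt12 cells held at least 3 UMIs of C1qa, C1qb, C1qc, Csf1r and Tyrobp, and in PBS 7 of 51 did. A few cells carried much of it, since 10 NaIO3 cells above 100 CP10K for the list held 41.1% of its UMIs and 1 PBS cell held 62.0%. Spp1, the osteopontin gene that leads the macrophages of NaIO3, stood at 2489 CPM in NaIO3 Krt12 cells, with 1345 CPM in the RPE gate, and had no UMI in PBS Krt12 cells. RPE genes summed to 13232 CPM in NaIO3 and 18349 CPM in PBS Krt12 cells (126061 and 179592 CPM in the RPE gate), rod genes to 371 and 948 CPM, and melanosome genes to 778 and 145 CPM. Scaled on 5 RPE genes, the library's mean profile made up 17.4% of NaIO3 and 11.02% of PBS Krt12 cells. Genes whose level, on the higher side of a comparison, was under 0.2 of that in the RPE gate, the myeloid gate or the remaining cells outside the surface epithelium are given here as possible free RNA and were not named.

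**Figure D2:**
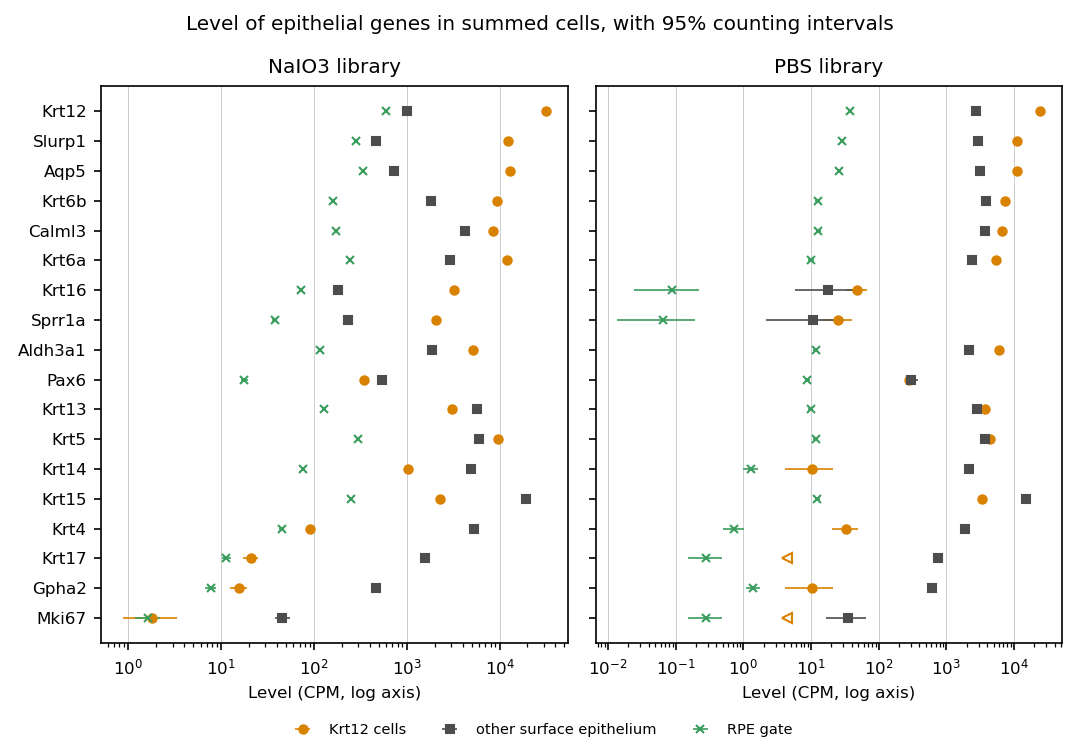
Level (CPM, log axis) of 18 epithelial genes in the summed Krt12 cells, other surface epithelium and RPE gate, with 95% counting intervals, for NaIO3 (left) and PBS (right); open triangles mark genes with no UMI, drawn at the limit of 3 counts. Krt16 and Sprr1a lie at 3244 and 2064 CPM in NaIO3 Krt12 cells and at 47.5 and 25.2 CPM in PBS Krt12 cells.

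Set against the other surface epithelium of the same library, the Krt12 cells were rich in genes of the corneal surface and poor in genes of basal and dividing cells. Because Krt12 and Krt15 chose the cells, these values describe them and were not tested. In NaIO3, 910 of 10936 genes (8.32%) were at least 2-fold higher in Krt12 cells and 2455 (22.4%) at least 2-fold lower, with a median log2 ratio of -0.34. Scaling by TMM (trimmed mean of M values), which centres the median at -0.02, gave 1374 higher and 1563 lower. In PBS, 459 of 4311 genes (10.6%) were at least 2-fold higher and 820 (19.0%) lower, or 577 and 627 with TMM.

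Secreted and membrane-anchored Ly6 proteins were 3 of the 24 genes named by rule in NaIO3. Slurp1, a secreted Ly6 protein of the tear film that quiets inflammation, had 12192 CPM in Krt12 cells and 472 CPM in other surface epithelium. Lypd2 had 7181 CPM in Krt12 cells and 273 CPM in other surface epithelium and Ly6g6c had 1950.2 CPM in Krt12 cells and 76.6 CPM in other surface epithelium. In PBS the values were 11238 against 2923 CPM for Slurp1, 15417 against 4765 CPM for Lypd2 and 1808 against 364 CPM for Ly6g6c. The other surface epithelium of PBS is 22 cells, and the 4 of them at 40 to 60% Krt12 held 77.1% of its Slurp1, 74.5% of its Lypd2 and 91.3% of its Ly6g6c UMIs. Without these 4 cells, left out after the values were seen, it stood at 862 CPM for Slurp1, 1568 CPM for Lypd2 and 41.03 CPM for Ly6g6c. Of 10 Ly6 family genes measured in NaIO3, 6 were at least 2-fold higher and 3 lower, among the lower Ly6e at 393 against 1298 CPM.

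Genes of the cornified envelope, the cross-linked protein layer under the membrane of surface cells, were 4 of the 24, namely Crct1, Sprr1b, Cnfn and Lce3c. In NaIO3, 12 of 17 were at least 2-fold higher in Krt12 cells and 1 (Krtdap) was lower, with a median log2 ratio of 1.32. Cnfn, the envelope protein cornifelin, had 1625 CPM in Krt12 cells and 65.8 CPM in other surface epithelium, Crct1 had 146 and 2.97 CPM, and Sprr1b had 134 and 2.60 CPM. In PBS 6 of 10 were higher and 0 lower. Crct1 there had 202 UMIs in Krt12 cells and 0 in the other surface epithelium, at least 28.2-fold higher against the limit of 3 counts, but 89.1% of them lay in 3 cells. The other genes named as higher in NaIO3 were Lce3c, Mgarp, Fam83a, Xlr4a, Xlr4c and S100a7a, at ratios between 24.0 and 71.8; Lce3 and Xlr4 genes have near-identical copies, so their reads may be split between them.

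Genes of the barrier that seals the surface of the eye were high in these cells as well. Of 19 genes of tight junctions, water channels, uroplakins and membrane mucins, 11 were at least 2-fold higher in NaIO3 and 8 of 17 in PBS. Aqp5, the water channel of the corneal epithelium, had 12978 CPM in Krt12 cells and 736 CPM in other surface epithelium of NaIO3. Upk1b, a uroplakin of apical plaques, had 806 against 118 CPM, Muc4, a membrane mucin, 737 against 184 CPM, and the tight junction gene Cldn4 1105 against 304 CPM. Muc1 went the other way, at 4.88 against 44.6 CPM. Klf4, a transcription factor of corneal maturation, had 1238 against 249 CPM, and Prdm1, which drives terminal differentiation, 115 against 28.2 CPM. Proteases and their inhibitors were higher for 14 of 28 genes and lower for 4, with Prss27 at 728 against 162 CPM, Tmprss11d at 142 against 17.8 CPM and Spink5, the inhibitor of skin kallikreins, at 278 against 78.04 CPM.

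All 20 genes of dividing cells were at least 2-fold lower in Krt12 cells of NaIO3, with a median log2 ratio of -4.31. Top2a had 4.88 CPM in Krt12 cells and 163 CPM in other surface epithelium, and Mki67 had 1.81 against 45.7 CPM. The list summed to 82.4 CPM in NaIO3 Krt12 cells, under the 160.9 CPM of the RPE gate, and to 35.6 CPM in PBS Krt12 cells, where 15 of the 20 had no UMI. Limbal progenitor genes, counted without Krt14 and Krt15, which belong to the rule, were lower for 9 of 12, among them Gpha2, a secreted protein of quiescent limbal cells, at 15.5 against 470.1 CPM, and Socs3 at 3.62 against 101 CPM; Cdh13 had no UMI in Krt12 cells and 40 in the others. Genes that anchor basal cells to their membrane were lower for 6 of 14, with Itgb4, the hemidesmosome integrin, at 3 UMIs against 148 (ratio 0.00986, 0.00201 to 0.0294).

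The remaining genes named as lower were of several kinds. The lipoxygenases Alox12e and Alox15 had 8.50 against 637 CPM and 3.44 against 259.8 CPM, the protease inhibitor Serpinb3a 4.52 against 645 CPM, and the secreted Wfdc18 11.6 against 1238 CPM. Krt17, Krt7 and the galectin Lgals7 had 20.8 against 1559 CPM, 15.01 against 715 CPM and 42.1 against 1925 CPM. Wfdc18 was found in 10.7% of Krt12 cells and in 11.5% of RPE gate barcodes, so its level in Krt12 cells is at background. The histone gene Hist1h2ap, of which near-identical copies exist, had 13.4 against 608 CPM, the cytochrome P450 gene Cyp2f2 8.50 against 415 CPM, Sptssb, a subunit of the enzyme that starts sphingolipid synthesis, 2.53 against 229 CPM, and the kinase gene Dapk2 3 UMIs against 145. Among list genes outside the named ones, Barx2, a homeobox factor of lacrimal gland development, and Adh7, the stomach-type alcohol dehydrogenase, were lower too, at 7.23 against 322 CPM and 75.4 against 1070.3 CPM.

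The study's own contrast is NaIO3 against PBS, and in the Krt12 cells its clearest marks were a stress keratin and small proline-rich proteins. Krt16 (chromosome 11, 100246091 to 100248902, minus strand, GRCm38) had 3244 CPM in NaIO3 and 47.5 CPM in PBS (17943 and 32 UMIs), a ratio of 68.4 (48.4 to 99.97). Sprr1a (chromosome 3, 92483952 to 92485895, minus strand) had 2064 CPM in NaIO3 and 25.2 CPM in PBS (11415 and 17 UMIs), a ratio of 81.9 (51.1 to 141). Sprr1b, in the same gene cluster at 92436809 to 92438789, had 739 UMIs (134 CPM) in NaIO3 and 0 in PBS, at least 30.03-fold higher against the limit of 3 counts.

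These genes were spread over many cells rather than a few. Krt16 was found in 91.8% of NaIO3 Krt12 cells and 19.6% of PBS Krt12 cells, against 56.0% and 0.110% of RPE gate barcodes. With every cell thinned to 3000 UMIs, which left out no Krt12 cell, the shares were 75.8% (71.4 to 79.7%) in NaIO3 and 7.84% (2.18 to 18.9%) in PBS, against 22.2% and 0.0276% in the RPE gate. Krt16 UMIs were thus also found in RPE barcodes of NaIO3, but at 73.1 CPM, and no RPE gate barcode of NaIO3 held 5 or more Krt16 UMIs after thinning.

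Sprr1a gave the same picture, in 81.4% of thinned NaIO3 cells (77.3 to 84.9%) and 9.80% of thinned PBS cells (3.26 to 21.4%), with 11.9% and 0.0552% in the RPE gate. Over unthinned cells Krt16 had a median of 10.9 CP10K and a highest value of 337 in NaIO3, against a median of 0 and a highest value of 8.38 in PBS. For Sprr1a the median was 10.7 and the highest value 148 CP10K in NaIO3, against 0 and 3.35 in PBS. The ranges overlap at the low end, and the upper part of each NaIO3 range lies above every PBS cell. Sprr1b was sparser, in 30.8% of NaIO3 Krt12 cells and 0 of 51 PBS cells, which by the limit of 3 counts allows a share of cells with a UMI of up to 5.88%.

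The proximal promoters of Krt12 and of both Sprr1 genes are shown because the Sprr1 genes were high in NaIO3 together while Krt12 was near its PBS level. Of 4 promoters looked for, 3 were in the RefSeq table (GRCm38.p6), and 250 bases before the RefSeq start are printed, all on the minus strand: Krt12 at chr11:99422260-99422509, Sprr1a at chr3:92485882-92486131 and Sprr1b at chr3:92438780-92439029. Capitals mark TGANTCA and TATAAA, the TATA box, both searched on both strands and with no overlap between them. TGANTCA, with any base in the middle, is a loosened form of the letters bound by AP-1 factors of the Fos and Jun families. Its middle base is G in both Sprr1a matches and A in the Sprr1b match.
Krt12: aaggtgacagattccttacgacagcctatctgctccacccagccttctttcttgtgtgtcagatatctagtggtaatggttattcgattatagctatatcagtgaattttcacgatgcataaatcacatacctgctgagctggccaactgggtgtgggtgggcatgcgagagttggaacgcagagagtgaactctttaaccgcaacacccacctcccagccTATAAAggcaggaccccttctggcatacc
Sprr1a: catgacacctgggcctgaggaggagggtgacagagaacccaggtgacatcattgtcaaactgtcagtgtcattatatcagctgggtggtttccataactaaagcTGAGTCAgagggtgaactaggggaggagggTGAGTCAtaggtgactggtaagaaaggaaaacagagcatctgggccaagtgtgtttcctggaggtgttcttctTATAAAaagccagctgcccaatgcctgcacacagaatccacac
Sprr1b: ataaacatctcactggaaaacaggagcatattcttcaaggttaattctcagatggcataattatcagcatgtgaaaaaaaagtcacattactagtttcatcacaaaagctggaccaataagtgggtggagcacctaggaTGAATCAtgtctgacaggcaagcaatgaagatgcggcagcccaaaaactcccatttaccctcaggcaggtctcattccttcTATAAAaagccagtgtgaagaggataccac
TGANTCA stood 146 and 116 bases before the start of Sprr1a and 111 bases before that of Sprr1b, and no match was found in the Krt12 window. Among 27025 promoters of this length 6.87% held the letters and 0.326% held them at least 2 times. TATAAA stood 29, 43 and 30 bases before the starts of Krt12, Sprr1a and Sprr1b, and 12.97% of the promoters held it. A match describes letters and shows no binding. The AP-1 genes themselves differed in the Krt12 cells in part, with Jun at 868 CPM in NaIO3 and 375 CPM in PBS, Fosb at 83.5 against 35.6 CPM, Atf3 at 128 against 43.01 CPM, and Junb and Fos at 1913 against 1418 CPM and 480.03 against 304 CPM. Fosl1 had 34 UMIs in NaIO3 and 0 in PBS, at least 1.38-fold higher against the limit of 3 counts.

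Krt14, the basal keratin on the same stretch of chromosome 11 as Krt16, also had UMIs in the NaIO3 cells. As 1 of the 5 keratins of the rule it is given as a description. It had 1040.2 CPM in NaIO3 Krt12 cells and 10.4 CPM (7 UMIs) in PBS Krt12 cells, with a median of 1.46 and a highest value of 146 CP10K over the NaIO3 cells. After thinning it was in 44.5% of NaIO3 cells (39.8 to 49.4%) and 1.96% of PBS cells, against 20.4% and 0.331% in the RPE gate. Krt14, Krt16 and Krt17 are alike in sequence, and the sources used here do not say how reads that match several genes were counted. In the other surface epithelium of PBS Krt14 stood at 2181 CPM and Krt16 at 17.7 CPM (5 UMIs). Sharing of reads between these genes was not tested.

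**Figure D3:**
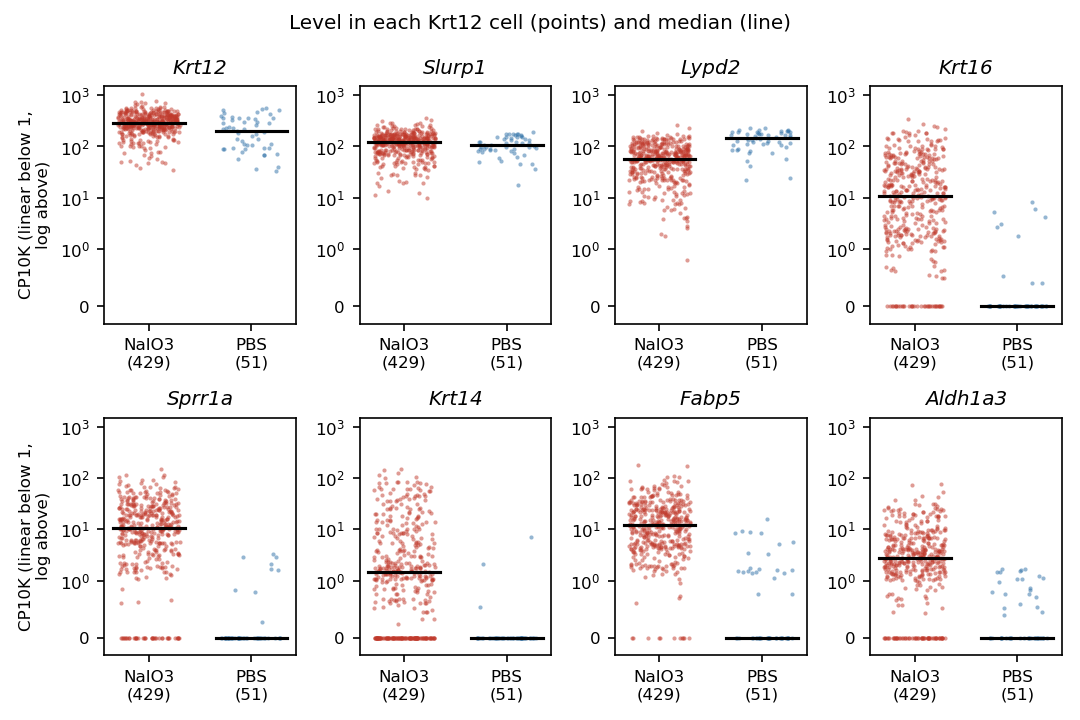
Level in each Krt12 cell (points; CP10K, linear below 1 and log above) of 8 genes in NaIO3 (left, 429 cells) and PBS (right, 51 cells), with the median as a line. Medians of Krt12, Slurp1 and Lypd2 are 291, 122 and 57.8 CP10K in NaIO3 and 202, 104 and 144 in PBS, while Krt16, Sprr1a, Fabp5 and Aldh1a3 have medians of 10.9, 10.7, 12.04 and 2.82 in NaIO3 and 0 in PBS.

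Across all genes, 1524 of 9639 (15.8%) were at least 2-fold higher in NaIO3 Krt12 cells and 464 (4.81%) at least 2-fold lower, with a median log2 ratio of 0.20. TMM scaling put the median at -0.02 and gave 1111 higher and 722 lower, so ratios near 1 have no fixed side. Genes entered on the counts of both libraries together, 5530868 UMIs in NaIO3 and 674303 in PBS. A gene low in PBS could thus pass through NaIO3 alone. The shares over all genes depend on this minimum, and counts at other minima are given below.

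Beside Krt16 and the Sprr1 genes, the genes named as higher were of several kinds. Fabp5, the fatty acid carrier of stratified epithelia and macrophages, had 2039 CPM in NaIO3 and 218 CPM in PBS (ratio 9.35, 7.95 to 11.1). It was in 87.6% of thinned NaIO3 cells and 25.5% of thinned PBS cells, with 34.6% and 1.10% in the RPE gate, and the myeloid gate held 2840 CPM in NaIO3 and 788 CPM in PBS. Aldh1a3, which makes retinoic acid, had 581 CPM in NaIO3 and 57.8 CPM in PBS (ratio 10.04, 7.33 to 14.1), and its thinned shares were 61.1% in NaIO3 and 9.80% in PBS, with 4.25% and 0.497% in the RPE gate. Akr1b8, an aldo-keto reductase, had 226 UMIs in NaIO3 and 0 in PBS (at least 9.18-fold higher).

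The interferon-induced Ifi27l2a had 137 CPM in NaIO3 and 5.93 CPM in PBS (ratio 23.1, 8.998 to 85.1), and its share of PBS Krt12 cells with a UMI, 7.84%, was under the 9.33% of the RPE gate. The vasoactive peptide gene Adm had 46.8 against 1.48 CPM (1 UMI in PBS, ratio 31.6, 5.62 to 1252), and Hs3st1, a heparan sulfate sulfotransferase, 54.1 against 2.97 CPM (2 UMIs in PBS, ratio 18.2, 5.002 to 151). Sbsn and Dmkn, secreted proteins of the upper epidermis that lie side by side on chromosome 7, had 104 against 10.4 CPM and 33.1 against 0 CPM, and 51.9% of the Dmkn UMIs lay in 3 cells. Tmem80 had 88.6 against 7.42 CPM, but it was in 24.9% of NaIO3 Krt12 cells and 37.4% of RPE gate barcodes, a share at background, and 26.7% of its NaIO3 UMIs lay in 3 cells.

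The genes named as lower in NaIO3 were of other kinds. Cdo1, cysteine dioxygenase, had 36.3 CPM in NaIO3 and 313 CPM in PBS (ratio 0.116, 0.0953 to 0.142), and was in 28.9% of NaIO3 and 80.4% of PBS Krt12 cells. Ly6a, the Sca-1 antigen, had 93.7 against 609.5 CPM, and Adgrf1, an adhesion G protein-coupled receptor, 16.1 against 153 CPM. Tspan1, a tetraspanin, and Slc16a11, a monocarboxylate carrier relative, had 20.6 against 149.8 CPM and 14.5 against 101 CPM. These 4 were in about the same wide share of PBS cells, at 52.9% for Ly6a, 52.9% for Adgrf1, 50.98% for Tspan1 and 54.9% for Slc16a11, and in 39.6, 15.4, 16.8 and 13.8% of NaIO3 cells.

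Itgam, better known from leukocytes, had 22.2 against 147 CPM and UMIs in 20.98% of NaIO3 and 54.9% of PBS cells, with 0.856% in the PBS RPE gate. Ripply3, a co-repressor, Adh6a, an alcohol dehydrogenase, Plekhs1 and the lipid phosphatase Plpp1 had 3.44 against 83.05 CPM, 6.51 against 94.9 CPM, 10.7 against 128 CPM and 8.86 against 96.4 CPM. Krt7, a keratin of simple and conjunctival epithelium, and Lce3a, a late envelope gene, had 15.01 against 147 CPM and 373 against 2377 CPM. For Ripply3, Adh6a, Plpp1, Krt7 and Lce3a more than 50% of the PBS UMIs lay in 3 cells (51.8, 62.5, 52.3, 60.6 and 55.6%), so those PBS levels rest on few cells.

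**Figure D4:**
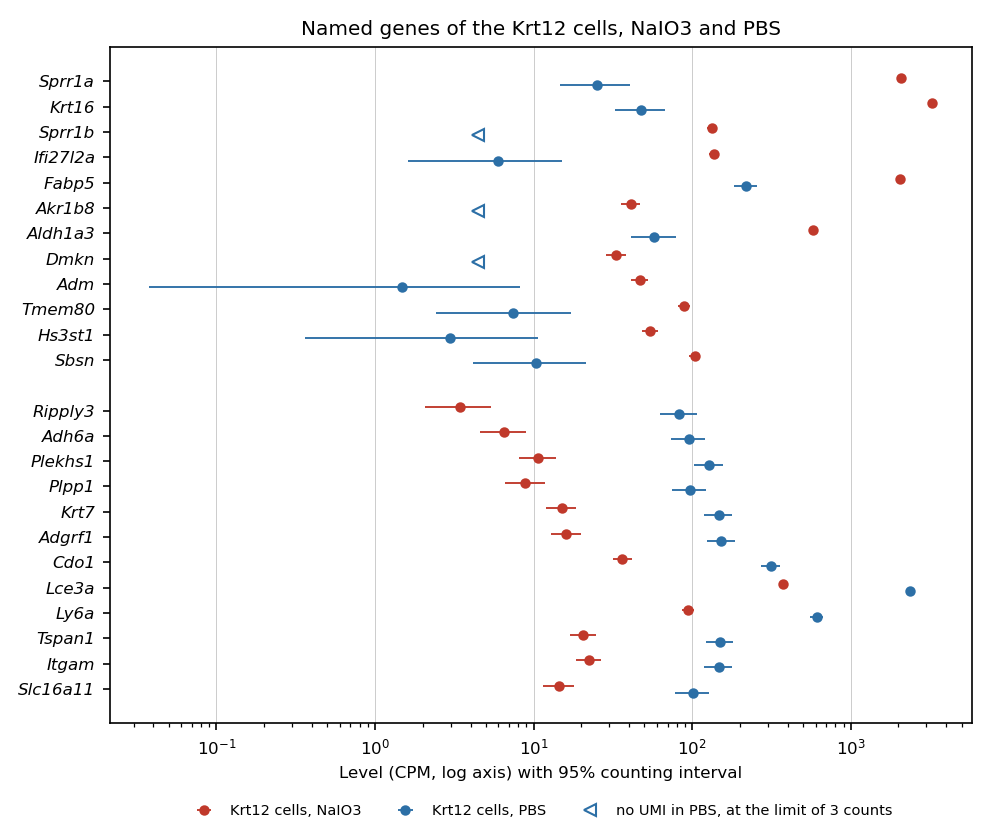
Level (CPM, log axis) with 95% counting interval in NaIO3 Krt12 cells (red) and PBS Krt12 cells (blue) of the 12 genes named as higher (top) and the 12 named as lower (bottom); open triangles mark no UMI in PBS, drawn at the limit of 3 counts. Among the plotted genes with UMIs in both libraries, Sprr1a and Krt16 have the highest ratios, at 2064 against 25.2 and 3244 against 47.5 CPM.

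Among gene lists, the cornified envelope was higher in NaIO3 Krt12 cells for 10 of 16 genes and lower for 2, with a median log2 ratio of 1.67 against 0.20 for all genes. For 4 of them PBS had no UMI, and with these at their bound against the limit of 3 counts the list gave 8 higher and a median of 0.80. Cstb, a cystatin, had 2005 CPM in NaIO3 and 694 CPM in PBS, Cnfn had 1625 CPM in NaIO3 and 459.7 CPM in PBS, and the cross-linking enzyme Tgm1 65.3 against 29.7 CPM. For Cnfn 48.4% of the PBS UMIs lay in 1 cell, without which PBS stood at 242 CPM. Ivl, involucrin, had 33 UMIs in NaIO3 and 0 in PBS, at least 1.34-fold higher, short of 2-fold. The lower ones were Csta1, another cystatin, at 464 against 940.2 CPM, and Crct1 at 146 against 299.6 CPM. For Crct1 89.1% of the PBS UMIs lay in 3 cells. The plakins Ppl and Evpl, on which the envelope is laid, had 1059 against 945 CPM and 1197 against 845 CPM, under 2-fold.

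Wound and migration genes were at least 2-fold higher for 11 of 20 and lower for 0, with a median of 1.27. Without Fn1 and Vim, which are possible free RNA, 9 were higher and the median was 1.06. With 2 genes that had no UMI in PBS at their bound, 10 were higher and the median was likewise 1.06. Krt6a, partner of Krt16, had 12171 CPM in NaIO3 and 5345 CPM in PBS, Anxa1 had 1495 against 491 CPM, and the hyaluronan receptor Cd44 had 194 against 54.9 CPM. Areg, a ligand of the EGF receptor, had 125 against 17.8 CPM (12 UMIs in PBS, ratio 7.04, 4.005 to 13.7), whereas Hbegf, another such ligand, had 803 against 1063 CPM. Krt17 had 115 UMIs in NaIO3 and 0 in PBS, at least 4.67-fold higher. After thinning it was in 3.96% of Krt12 cells and 4.07% of RPE gate barcodes of NaIO3, a share at background. Its level was 20.8 CPM in these Krt12 cells and 11.4 CPM in that gate. Krt6b, which the label names as a marker, had 9483 against 7283 CPM, and Krt6a and Krt6b are near-identical, so their split is uncertain.

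Desmosome and adherens junction genes, the rivets between epithelial cells, were at least 2-fold higher for 8 of 16 and lower for 1, with a median of 0.94. Desmoplakin (Dsp) had 1089 CPM in NaIO3 and 497 CPM in PBS, plakoglobin (Jup) 1246 against 492 CPM, the plakophilins Pkp1 and Pkp3 421 against 139 CPM and 811 against 314 CPM, and E-cadherin (Cdh1) 151 against 62.3 CPM. Desmocollin Dsc2 had 789.6 against 295 CPM. Dsg2 was the exception, at 7.96 against 38.6 CPM.

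Proteases and inhibitors were higher for 15 of 26 and lower for 2, with a median of 1.08. The matriptase gene St14 had 163 against 57.8 CPM and Spink5 278 against 108 CPM, while Prss8, a substrate of matriptase, had 73.6 against 193 CPM. Of the 15, 4 (Ctsb, Ctsd, Timp1 and Serpinb9) are possible free RNA.

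Stress genes were higher for some members of each list. Of 18 immediate early and heat shock genes 8 were at least 2-fold higher and 0 lower (median 0.84), with the inducible chaperones Hspa1b and Hspa1a at 204 CPM in NaIO3 and 43.01 CPM in PBS and 331 against 135 CPM. Of 19 p53 and senescence genes 11 were higher and 0 lower (median 1.23). With 1 gene that had no UMI in PBS at its bound, 10 were higher. Without 6 genes of possible free RNA 6 were higher and 0 lower (median 0.91). The cell cycle inhibitor Cdkn1a had 916 against 372 CPM and Btg2 322 against 128 CPM. Of 20 oxidative stress genes 3 were higher and 2 lower (median 0.49), close to the 15.8% over all genes, and without 8 genes of possible free RNA 1 was higher and 2 lower. Thioredoxin (Txn1) had 659 against 116 CPM, its reductase Txnrd1 12.5 against 77.1 CPM and ferritin heavy chain (Fth1) 3058 against 7173 CPM. The endoplasmic reticulum chaperone Hspa5 had 519 against 193 CPM and the glutathione-degrading Chac1 71.8 against 166 CPM.

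Interferon-response genes split. Of 22, 10 were at least 2-fold higher and 3 lower, with a median of 0.90. Ifit1 had 333 CPM in NaIO3 and 75.6 CPM in PBS, but the RPE gate also stood at 133 CPM in NaIO3 and 3.07 CPM in PBS. Ifit3, which shares sequence with it, had 194 against 81.6 CPM. Isg15 and Oasl1 differed by less than 2-fold, at 568 against 509 CPM and 196 against 197 CPM, and Irf1 and Psmb8 were lower in NaIO3, at 105 against 242 CPM and 217 against 482 CPM.

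**Figure D5:**
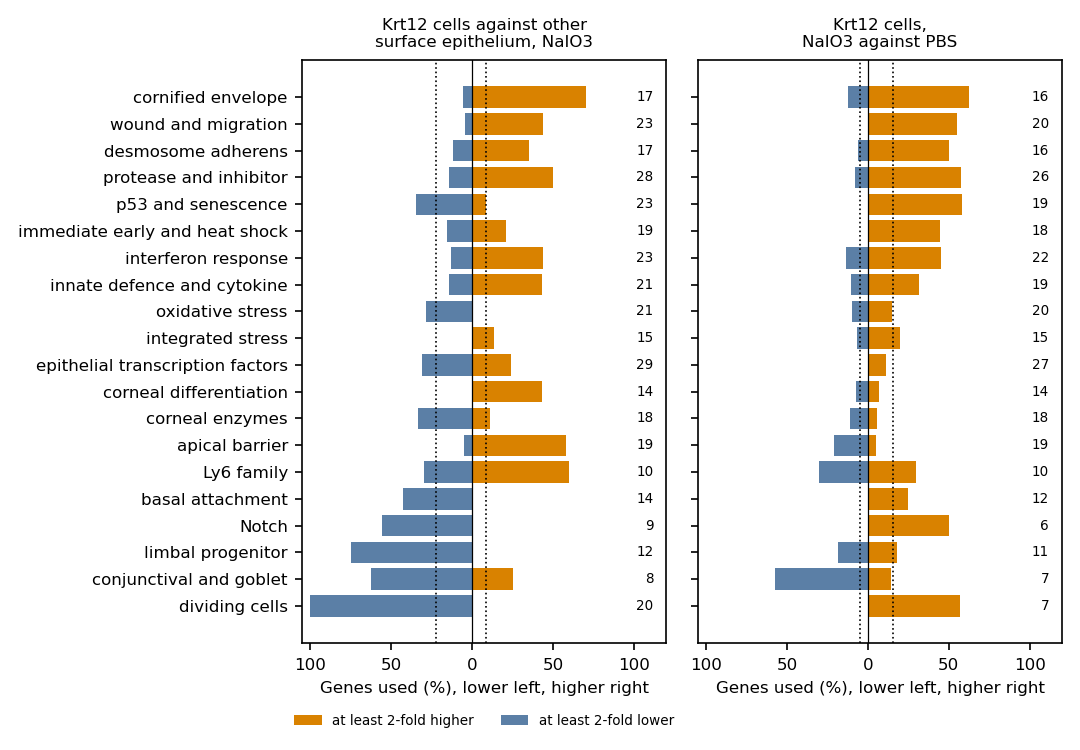
Percent of the genes used in each of 20 lists that were at least 2-fold higher (right, orange) or lower (left, blue) in Krt12 cells, against the other surface epithelium of NaIO3 (left panel) and in NaIO3 against PBS (right panel); the number at the right edge is the genes used and dotted lines give the percent over all genes. All 20 dividing-cell genes lie on the left in the first panel, and 10 of 16 envelope genes lie on the right in the second.

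Genes of corneal identity mostly stayed within 2-fold between the libraries, while several genes of the apical barrier were lower in NaIO3. Of 14 corneal differentiation genes 1 was higher and 1 lower, with a median of 0.01. Slurp1 had 12192 CPM in NaIO3 and 11238 CPM in PBS (ratio 1.08, 1.06 to 1.11), Aldh3a1 5128 against 5941 CPM, Klf4 1238 against 1225 CPM and Elf3 1229.6 against 1289 CPM. Gsto1, the glutathione transferase omega gene, had 31662 against 61789.7 CPM. Of 19 apical barrier genes 1 was higher (Cldn4, 1105 against 381 CPM) and 4 were lower, namely Muc1 at 4.88 against 51.9 CPM, Muc20 at 49.5 against 224 CPM, Upk1b at 806 against 1679 CPM and Muc4 at 737 against 1533 CPM. For Muc1 57.1% of the 35 PBS UMIs lay in 3 cells, against 16.7% for Muc4 and 21.4% for Upk1b. Over all genes 15.8% were higher and 4.81% lower. The median log2 ratio of the 19 barrier genes was -0.08 against 0.20 for all genes. Lypd2 was lower as well, at 7181 CPM in NaIO3 and 15417 CPM in PBS, and its median over cells was 57.8 CP10K in NaIO3 and 144 in PBS. Both ranges are wide and overlap, from 0.817 to 263 CP10K in NaIO3 and from 22.4 to 227 in PBS.

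The other surface epithelium was set beside the Krt12 cells under the same contrast; the difference between the contrasts could not be tested with 1 library a group, and some of its levels lie near those of the RPE gate. Krt16 had 182 CPM in NaIO3 and 17.7 CPM in PBS and Sprr1a 232 CPM in NaIO3 and 10.6 CPM in PBS, with 73.1 and 37.9 CPM in the RPE gate of NaIO3. Fabp5 had 666 against 339 CPM, Areg 115 against 60.1 CPM, Dsp 386 against 445 CPM, Cdkn1a 257 against 265 CPM and Cstb 923 against 1015 CPM. Hspa1b, at 381 against 91.9 CPM, and Txn1, at 926 against 407 CPM, were higher in NaIO3 there too. The 12 genes named as higher in NaIO3 Krt12 cells all lay on the same side there, 10 of them at least 2-fold. Of the 12 named as lower, 10 lay on the same side there, 7 of them at least 2-fold. The counting interval lay on the same side for 9 of the 12 higher and 9 of the 12 lower genes. Sprr1b was among the higher ones at 7 UMIs (2.60 CPM) in NaIO3 and 0 in PBS. That level was under the 3.13 CPM of the RPE gate of NaIO3. The part of free RNA in these sides was not tested. Over all genes 1094 of 8938 (12.2%) were at least 2-fold higher and 668 (7.47%) lower. Of its envelope genes 6 of 13 were higher and 1 lower, of its wound genes 4 of 16 higher and 2 lower, and of its desmosome genes 1 of 17 higher and 0 lower.

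The NaIO3 Krt12 cells were not uniform. After thinning to 3000 UMIs, in another random draw than that of the shares above, 188 of 429 cells held at least 5 Krt16 UMIs, 174 at least 5 Sprr1a UMIs and 116 at least 5 of both, which is 61.7% of the Krt16 cells and 66.7% of the Sprr1a cells. For Krt14 69 cells reached 5 UMIs, and 61 of them were Krt16 cells (88.4% of the Krt14 and 32.4% of the Krt16 cells). Rank correlations over the 429 cells, which share 1 library and their depth, were 0.51 between Krt16 and Krt14, 0.43 between Krt16 and Sprr1a, 0.40 between Krt12 and Slurp1 and -0.16 between Krt16 and Lypd2. Of other envelope genes, 123 cells held at least 5 Cnfn UMIs, and all 13 with at least 5 Crct1 UMIs were among them, while 16 held at least 5 Sprr1b UMIs, of which 1 was a Crct1 cell.

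Cells were also ranked by the summed CP10K of Krt6b, Krt16, Sprr1a, Slurp1 and Calml3 and cut into 3 equal ranges of 143 cells in NaIO3, with median sums of 236, 352 and 449 CP10K; a range of such a sum is not a cell type. Genes outside the sum differed along it. Krt14 had 605, 483 and 1970 CPM from the lowest to the highest range, Fabp5 1351, 1720 and 2919 CPM, and Krt5 7371, 9618 and 11327 CPM. Dsp had 768, 1064 and 1369 CPM. The lowest range was also the shallowest, at a median of 7759 UMIs against 11274 and 12038, and held more macrophage RNA, with Spp1 at 5668, 1282 and 1234 CPM; the part of depth and of that RNA in these values was not tested. The 51 PBS cells, in ranges of 17, had medians of 157, 247 and 307 CP10K and Krt5 at 1462, 4913 and 6096 CPM.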

How the data were processed

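Single-cell RNA was counted by the authors with Cell Ranger 3.0.2 on mm10, per the submitters' processing notes, and the authors deposited unscaled UMI counts for each gene and barcode. Annotation, strand setting and treatment of multi-mapping reads are not stated in those notes or the labels. Of 27998 gene rows 27722 matched GENCODE M21 (GRCm38), which gave coordinates. Filters and gates are given with the results; doublets were scored but kept. With 1 library per group no test was possible: levels carry exact Poisson, ratios exact conditional binomial and shares Clopper-Pearson 95% intervals, which cover counting error only. Genes needed 20 counts or more over both groups compared, list ratios had a pseudocount of 0.5, a 2-fold ratio was the limit for calling a gene higher or lower, and a count of 0 was set to a limit of 3. Named genes were ranked, as a rule, by the interval bound nearest to 1 (at least 100 counts for Krt12 cells against other surface epithelium in NaIO3, at least 50 for NaIO3 against PBS) and took the first 12 each way. It left out the keratins of the gate, mitochondrial, ribosomal, haemoglobin, predicted and sex-specific genes and those whose level on the higher side was under 0.2 of that in the RPE gate, the myeloid gate or the remaining cells (301 and 719 genes). Of 562 genes in 39 lists 556 matched. Members, lists and markers were chosen with earlier results of these data known. Simulated counts were used to check the scripts. Python 3.11.15, numpy 2.4.6, scipy 1.17.1, pandas 2.3.3, scanpy 1.11.5, matplotlib 3.10.9 and R 4.3.3 with edgeR 4.0.16 (TMM factors only) were used.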

Additional observations from a re-analysis of the deposited data

Results flagged for a closer look

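Of 53 genes screened, 5 were flagged. Their log2 ratio of NaIO3 over PBS lay on opposite sides of 0 in the Krt12 cells and in the other surface epithelium. With 1 library per group the difference was not tested. The 5 are not every gene with opposite sides. Dsp, Cdkn1a and Cstb were higher in NaIO3 in Krt12 cells and slightly lower in NaIO3 in the other surface epithelium. Of the 12 genes named as lower in Krt12 cells, 10 were lower in the other surface epithelium too. No share over all genes is given beside the 5, so their number is not read as a result. Among the 5, Slurp1 was at 0.12 in Krt12 cells and -2.63 in the others, Ly6g6c at 0.11 and -2.25, Krt12 at 0.37 and -1.42, and Krt6b at 0.38 and -1.07. In Krt12 cells Slurp1 and Ly6g6c lay under the median log2 ratio over all genes, 0.20. TMM scaling put that median at -0.02, so the side of 0 of these 2 genes in Krt12 cells depends on the scaling. Krt15 went the other way, at -0.57 in Krt12 cells and 0.36 in the others. Krt12 and Krt15 belong to the rule that parts the cells. In PBS the other surface epithelium is 22 cells, and 4 at 40 to 60% Krt12 held 77.1% of the Slurp1, 91.3% of the Ly6g6c, 92.2% of the Krt12 and 57.5% of the Krt6b UMIs. With cells at 40 to 60% Krt12 left out in both libraries, the other surface epithelium stood at -1.69 for Slurp1, -0.32 for Krt6b and 0.32 for Krt15, while Ly6g6c turned to 0.30 and Krt12 to 1.09. The median cell outside the rule had 2.72 CP10K of Slurp1 in NaIO3 and 0 in PBS, the opposite order to the sum, with 2.75 and 0 CP10K in the median barcode of the RPE gate.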

How the results depend on the processing

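No paired analysis was possible because each group has 1 library, and no replicate could be left out. Of the counts and shares recomputed, 135 stayed within their limits and 37 moved. With a mitochondrial limit of 10% the share of Krt12 cells among kept barcodes was 18.6% in NaIO3 and 1.58% in PBS, since RPE barcodes were removed. A keratin sum of at least 120 CP10K gave 0.821% in PBS. An RPE gene sum under 20 CP10K gave 5.32% in NaIO3 and 0.501% in PBS, and 57.1% and 56.4% of surface epithelium. Leaving out cells with at least 3 macrophage UMIs kept only 9 NaIO3 and 44 PBS Krt12 cells, so it says little; the NaIO3 shares were 0.228% of kept barcodes and 33.3% of surface epithelium, and 156 genes were higher and 282 lower against the other surface epithelium of NaIO3, 426 higher in NaIO3 against PBS, and 188 higher and 229 lower in the other surface epithelium. There the rod gene list in NaIO3 against PBS turned to a median of 1.15, against -1.22. Requiring at least 3 Krt12 UMIs and a 2-fold excess gave 284 genes higher in PBS Krt12 cells. TMM scaling gave 1374 higher and 1563 lower in NaIO3 Krt12 cells against the others, and 722 lower in NaIO3 against PBS. With no count minimum these were 1754 and 4886 (NaIO3 cells) and 1477 and 4577 (PBS cells) against the others, 2979 lower in NaIO3 against PBS and 3361 lower in the other surface epithelium. A minimum of 100 gave 1046 lower (NaIO3 cells), 175 higher and 193 lower (PBS cells), 563 and 152 in NaIO3 against PBS, and 285 and 138 in the other surface epithelium. A mean of at least 20 CPM, chosen after seeing the data, gave 538 and 840 (NaIO3 cells), 339 and 177 in NaIO3 against PBS, and 329 and 389 in the other surface epithelium. The minima also changed the number of genes tested. In NaIO3 against PBS it went from 9639 to 15784 with none, to 5081 at 100 counts and to 4253 at a mean of at least 20 CPM. The cause of these and of the other moves was not tested. With cells at 40 to 60% Krt12 left out of the other surface epithelium, chosen after seeing the data, its log2 ratio of NaIO3 over PBS turned to 0.30 for Ly6g6c, against -2.25, and to 1.09 for Krt12, against -1.42. Of single-gene values 707 stayed within their intervals, 213 moved and these 2 turned; of list medians 1316 did and 29 moved. The 674303 UMIs of PBS Krt12 cells against 5530868 of NaIO3 limit what can be seen lower in PBS.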

Other observations

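Haemoglobin Hbb-bs stood at 20.8 CPM in NaIO3 Krt12 cells and 1848 CPM in PBS Krt12 cells, where 83.1% of its UMIs lay in 1 cell. Igfbp2, a binding protein for insulin-like growth factors, had 121.9 CPM in NaIO3 Krt12 cells and 8.90 CPM in PBS Krt12 cells, with 246 and 132 CPM in the RPE gate. Krt78, a keratin of stratified epithelium, had 270.3 and 239 CPM in the Krt12 cells of NaIO3 and PBS, against 15.98 and 159 CPM in the other surface epithelium. Krt13, a keratin of mucosal epithelia, exceeded Krt12 in 5 NaIO3 and 2 PBS Krt12 cells.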
